A study of Mus musculus with 12 samples.

Results

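Macrophages that lacked Cd36 were compared after culture with myeloma cells and in culture alone. The comparison was made of the 3 arrays labelled as Cd36 knockout (KO) tumour-associated macrophages (TAMs) and the 3 labelled as KO macrophages, which were chosen by their labels and make up 6 of the 12 arrays of the series. KO TAMs had been co-cultured for 72 h with the mouse multiple myeloma line 5TGM1. For KO macrophages, which were cultured without myeloma cells, no time in culture was recorded, so that time in culture and co-culture cannot be told apart. The knockout of Cd36 was shared by all 6 arrays. The other 6 arrays were 3 of wild-type (WT) macrophages and 3 of WT TAMs, and they are used to set the KO response against that of WT cells. WT arrays also entered the statistical fit. The standard errors and adjusted p-values of the KO comparison thus rest on the spread within all 4 groups, except where the KO arrays alone are named. The labels call the cells primary mouse macrophages and say nothing of their tissue of origin, of the age or sex of the animals, or of how myeloma cells were kept out of the RNA. They also do not say whether the arrays of a group came from separate cultures or animals, so that the p-values cover no more than the spread among these arrays, and that spread may be technical.

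CD36 is a scavenger receptor and fatty acid translocase through which oxidised lipoproteins and long-chain fatty acids enter macrophages. Macrophages are abundant in bone marrow that carries myeloma, where they can feed plasma cells growth factors, clear dying cells and promote new vessels. Macrophages of tumours often carry high levels of scavenger and Fc receptors, of lysosomal enzymes and of chemokines, and these groups of genes, with those of lipid handling, antigen presentation and the response to interferon, are followed below.

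Values are log2 intensities of the array, and a difference is the mean of the 3 KO TAM arrays minus the mean of the 3 KO macrophage arrays, followed by ± its standard error from limma. A gene is said to rise or fall where limma gave it an adjusted p under 0.05 (Benjamini-Hochberg, over all 22180 genes tested). A call is said to hold where it was kept on leaving out each of the 6 KO arrays in turn. Array medians lay between 32.38 and 33.3 on the linear scale for the 6 KO arrays, and the number of arrays limits the precision. RNA of bulk cultures was measured, so fewer cells of a type and less RNA per cell cannot be told apart.

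The labels were first set against the data. Cd36 itself read 8.79, 8.63 and 8.78 on KO macrophages 1, 2 and 3 and 8.45, 9.66 and 8.64 on KO TAMs 1, 2 and 3, all below the 12.10 of the lowest WT array. Co-culture moved it by 0.18 ± 0.24 (adjusted p = 0.749). The macrophage genes Adgre1 (F4/80; 12.35 to 12.82) and Cd68 (12.05 to 13.02) were high on all 6 KO arrays. Of 19 markers of plasma and myeloma cells, which the tumour line could bring, 2 were called higher and 1 lower in KO TAMs (15.8%), and 13 of the 19 differences were above 0. Ccnd2, a cyclin (1.55 ± 0.35, adjusted p = 0.0221), and Cd28, a costimulatory receptor (1.47 ± 0.31, 0.0151), rose, and Xbp1, a factor of secretory cells, fell by 0.41 (0.017). These calls did not hold, with adjusted p up to 0.0857 for Ccnd2 (without KO macrophage 1 or 2 or KO TAM 1 or 2), 0.0624 for Cd28 (without KO macrophage 1 or 2) and 0.0643 for Xbp1 (without KO macrophage 1, 2 or 3 or KO TAM 2). Some genes of plasma cells that were not called were named after their values were seen. Of these, KO TAMs had Jchain at 3.53 to 3.67, Tnfrsf17 at 3.65 to 3.79, Pou2af1 at 4.56 to 4.61 and Sdc1 at 5.44 to 5.76. Their differences from KO macrophages were 0.22, -0.0025, 0.32 and 0.41 in this order. The median difference of the 19 markers was 0.22. The mean level of all 19 was 6.56 to 6.59 on the KO macrophages and 7.09, 6.81 and 6.64 on KO TAMs 1, 2 and 3. The mean of 15 markers of stromal cells and fibroblasts was 5.58 to 5.71 on the KO macrophages and 7.365, 7.040 and 6.005 on the KO TAMs. All 15 differences were above 0 (median 0.85), and 4 were called higher (26.7%), those of the matrix proteoglycans Bgn (2.49 ± 0.44, 1.51 with the mean of its probe sets) and Dcn (1.77 ± 0.31), of Sparc (2.19 ± 0.46), a matrix protein, and of the collagen chain Col1a2 (1.67 ± 0.39). The calls of Sparc and Col1a2 were lost without KO macrophage 1, 2 or 3 or KO TAM 1 or 2 (adjusted p up to 0.064 and 0.0867), and that of Bgn on the KO arrays alone (0.0607). The collagen chain Col1a1 (1.71 ± 0.47, adjusted p = 0.0532) and the smooth muscle actin Acta2 (1.91 ± 0.64, 0.107) did not pass the test. Pdgfra, Thy1 and Lum, named after their values were seen, did not pass it either. Pdgfra differed by 0.78 (adjusted p = 0.34), Thy1 by 0.17 (5.04 to 5.42 over the 6 arrays) and Lum by 0.11 (2.91 to 3.38). The part of stromal or myeloma cells in the results below was not tested.

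The 3 KO TAM arrays were not alike. On KO TAM 1, 550 genes differed by more than 1 from the average of the other KO TAM arrays, as did 303 on KO TAM 3 and 88 on KO TAM 2, against 4 to 12 genes for a KO macrophage array. In 64 genes (46 lower and 18 higher) KO TAM 1 was more than 2 from both other KO TAM arrays, which was the case for 11 genes on KO TAM 3 and for 0 on KO TAM 2. Itgal, the alpha chain of the integrin LFA-1, read 11.34 to 11.44 in KO macrophages and 6.71, 10.77 and 10.87 on KO TAMs 1, 2 and 3. Marco, a scavenger receptor of the class A type, read at most 12.10 in KO macrophages and 8.70, 11.93 and 11.97 in KO TAMs, and H2-Ab1, a chain of the MHC class II molecule, read 6.70 to 6.92 and then 10.05, 7.46 and 7.08. Neither Itgal (adjusted p = 0.223) nor Marco (0.493) nor H2-Ab1 (0.173) passed the test. These 3 genes were named after their values were seen, except where a list below holds them.

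In all, 1449 of the 22180 genes tested (6.53%) differed between KO TAMs and KO macrophages, 643 higher (2.9%) and 806 lower (3.63%) in KO TAMs. The called differences were mostly small, with a median size of 0.60, and 290 genes (1.31%) differed at least 2-fold. Among these, rises were more frequent, with 174 (0.784%) against 116 (0.523%). In each of the 1449 genes the 3 KO TAM arrays lay on 1 side of the 3 KO macrophage arrays, as they did in 26.3% of all genes tested. The calls of 486 genes held, 229 higher and 257 lower. Leaving out 1 KO macrophage array left 631, 597 or 600 of the 1449 calls, and leaving out KO TAM 1, 2 or 3 left 986, 1077 or 1202. The fit of the 6 KO arrays alone called 505 genes.

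The largest rise was that of Ccl8, a chemokine that draws monocytes. Ccl8 read 5.45, 5.55 and 5.44 in KO macrophages and 10.96, 9.27 and 10.44 in KO TAMs, a rise of 4.75 ± 0.53 or 26.8-fold (adjusted p = 0.000506). All 3 KO TAM arrays were far above all 3 KO macrophage arrays. Slc40a1, the iron exporter ferroportin, read 6.12, 6.10 and 6.01 and then 10.16, 9.41 and 8.89, a 10.6-fold rise (3.41 ± 0.26, adjusted p = 4.26e-05). Il7r, the alpha chain of the interleukin-7 receptor, read 6.50 to 6.67 in KO macrophages and 11.01, 10.00 and 8.88 in KO TAMs (3.37 ± 0.37). Ednrb, the type B endothelin receptor, read 6.75 to 7.09 and then 12.29, 10.03 and 9.17 (3.61 ± 0.59). In Slc40a1, Il7r and Ednrb, KO TAM 1 was the highest and KO TAM 3 the lowest of the TAM arrays. Ifi205, an interferon-induced DNA sensor of the Ifi200 family, had the opposite order, with 5.75 to 6.01 in KO macrophages and 8.73, 8.97 and 9.85 in KO TAMs (3.32 ± 0.33, adjusted p = 0.000209).

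Lipid and matrix genes were also among the 20 largest rises. Fabp5, a cytosolic carrier of fatty acids, read 7.74, 7.89 and 7.60 in KO macrophages and 11.93, 10.25 and 10.73 in KO TAMs, a 9.41-fold rise (3.23 ± 0.36). Fabp4, its close relative, rose by 4.30 ± 0.86, with 4.10, 4.73 and 5.29 in KO macrophages and 11.63, 8.09 and 7.29 in KO TAMs. The call of Fabp4 was lost without KO macrophage 1 (adjusted p = 0.0585). Hpse, the heparanase that cuts heparan sulfate of the matrix, rose with KO macrophages at 7.60 to 8.17 and KO TAMs at 10.69 to 11.49 (3.05 ± 0.21, and 1.84 with the mean of its probe sets), with the smallest adjusted p of the 20 (1.42e-05). Trem2, a lipid-sensing receptor of macrophages, rose by 2.91 ± 0.33, from 6.85 to 7.10 up to 10.74, 10.03 and 8.87. Pf4 (platelet factor 4, 3.32 ± 0.63), the chemokine Ccl12 (3.0045 ± 0.35), Emp1, an epithelial membrane protein (2.90 ± 0.50, and 1.57 with the mean of its probe sets), and the growth factor Pdgfc (2.90 ± 0.33) rose as well. Atp6v0d2, a subunit of the vacuolar proton pump, rose by 2.92 ± 0.55, Csf2rb2, a beta chain of cytokine receptors, by 2.75 ± 0.45, Il13ra1, a chain of the receptors for interleukins 4 and 13, by 2.57 ± 0.45, and Clec4n (dectin-2), a receptor for fungal glycans, by 2.52 ± 0.26. In all of these the groups did not overlap. The guanine deaminase Gda (3.09), thrombospondin Thbs1 (2.79) and fibronectin Fn1 (2.72) passed the test on all arrays and lost the call without KO macrophage 1 (Gda and Fn1), KO macrophage 2 (all 3), KO macrophage 3 (Gda and Fn1) or KO TAM 1 or 2 (Fn1), with adjusted p up to 0.068 for Gda, 0.0517 for Thbs1 and 0.0759 for Fn1. Of the 256 called genes with a leave-one-out check by name, 136 held. Fitted on the KO arrays alone, the calls of 9 of the 20 rises were lost, those of Pf4, Atp6v0d2, Emp1, Csf2rb2 and Il13ra1 (adjusted p from 0.0521 to 0.081) and also those of Fabp4 (0.0798), Thbs1 (0.0558), Gda (0.103) and Fn1 (0.109), and Fn1 was lost with a trended and robust fit too (0.0514).

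**Figure D1:**
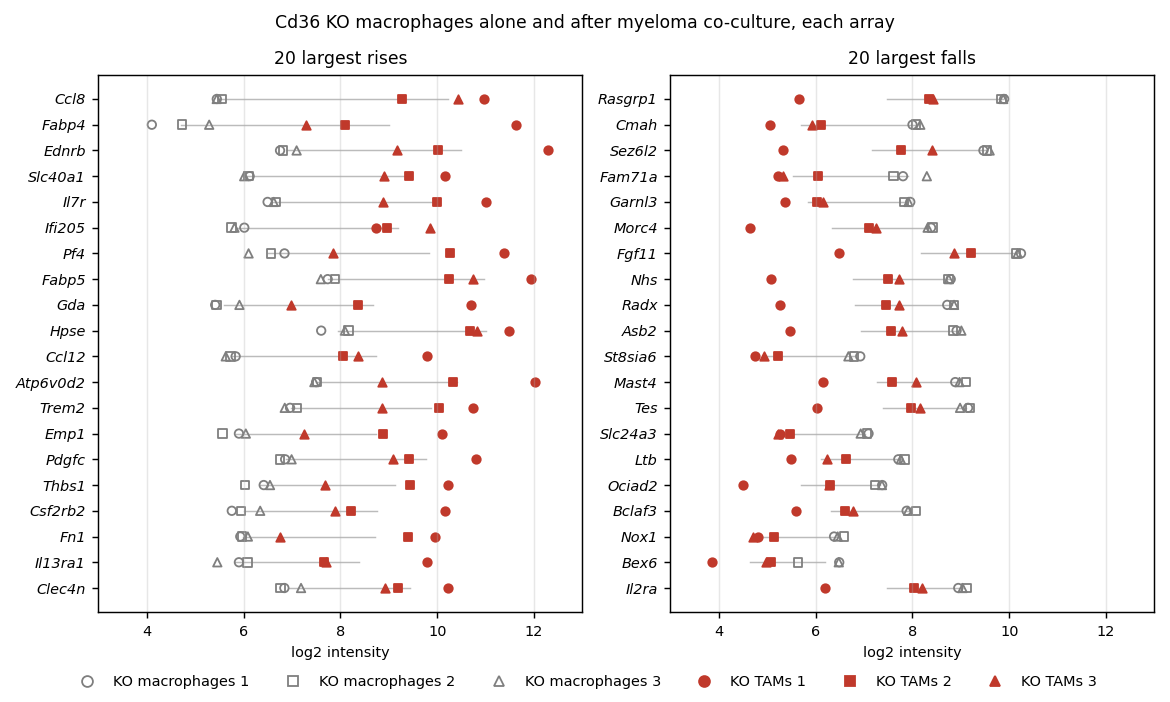
Log2 intensity on each of the 6 KO arrays (horizontal axis) for the 20 largest rises (left) and the 20 largest falls (right) of called genes, with open grey symbols for KO macrophages 1 to 3 and filled red symbols for KO TAMs 1 to 3; grey lines join the group means. For Ccl8 the KO macrophage arrays lie at 5.44 to 5.55 and the KO TAM arrays at 9.27 to 10.96, and among the falls KO TAM 1 lies far to the left of the other TAM arrays in genes such as Rasgrp1.

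Among the 20 largest falls, 8 calls held. Cmah, which makes the sialic acid Neu5Gc, read 8.0015, 8.07 and 8.16 in KO macrophages and 5.05, 6.12 and 5.93 in KO TAMs, a 5.2-fold fall (-2.38 ± 0.25, adjusted p = 0.000332). Fam71a fell by 2.36 (± 0.28), from 7.61 to 8.30 down to 5.23, 6.06 and 5.33. Garnl3 fell by 2.05 (± 0.17), from 7.83 to 7.96 down to 5.36 to 6.16. Slc24a3, a sodium, calcium and potassium exchanger, read 7.09, 7.07 and 6.93 in KO macrophages and 5.27, 5.47 and 5.22 in KO TAMs, a fall of 1.71 with closely spaced arrays (adjusted p = 1.12e-05). The sialyltransferase St8sia6 (-1.83 ± 0.13), the cytokine lymphotoxin beta Ltb (-1.66 ± 0.22), Bclaf3 (-1.63 ± 0.24) and the superoxide-producing oxidase Nox1 (-1.58 ± 0.21) fell too.

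In the other 12 falls the size of the difference rested in part on KO TAM 1. Rasgrp1, an activator of Ras, read 9.84 to 9.89 in KO macrophages and 5.65, 8.34 and 8.42 in KO TAMs, a difference of -2.40 that became -1.49 without KO TAM 1. Sez6l2 read 9.47 to 9.60 and then 5.32, 7.76 and 8.40, with -2.38 on all arrays and -1.46 without KO TAM 1. All KO TAM arrays were below all KO macrophage arrays in both genes, and KO TAM 1 lay far below the rest. The differences of Morc4, Fgf11, Nhs, Radx, Asb2, Mast4, Tes, Ociad2 and Il2ra, the alpha chain of the interleukin-2 receptor, lay between -2.04 and -1.56 on all arrays and between -1.25 and -0.92 without KO TAM 1, and each of these 9 and Rasgrp1 and Sez6l2 passed the test there. Each of these 11 calls was lost without any of KO macrophages 1, 2 and 3, with adjusted p up to 0.127 (Il2ra), and that of Bex6 (-1.57) also without KO TAM 1 (0.138). On the KO arrays alone all 12 calls were lost (adjusted p from 0.0766 to 0.153). With the mean of its probe sets Mast4 stood at -0.73.

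Gene lists were then followed, each described by how many of its measured members were called, against 6.53% and a median difference of -0.01 over all genes tested. The lists with the highest shares of called genes beyond the macrophage markers were those of TAM markers (41.9%), MHC class I presentation (40.9%), Fc gamma receptors (40.0%), lysosomal enzymes and membrane proteins (37.1%), guanylate-binding and Ifi200 proteins (36.8%) and cytokine receptors with colony-stimulating factors (35.5%). No member of these 6 lists fell. Sterol synthesis (18 genes), glycolysis (20) and mitosis (36) had 0 calls by limma, with 0, 7 and 3 genes at an unadjusted p under 0.05. The members overlap in part between lists.

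**Figure D2:**
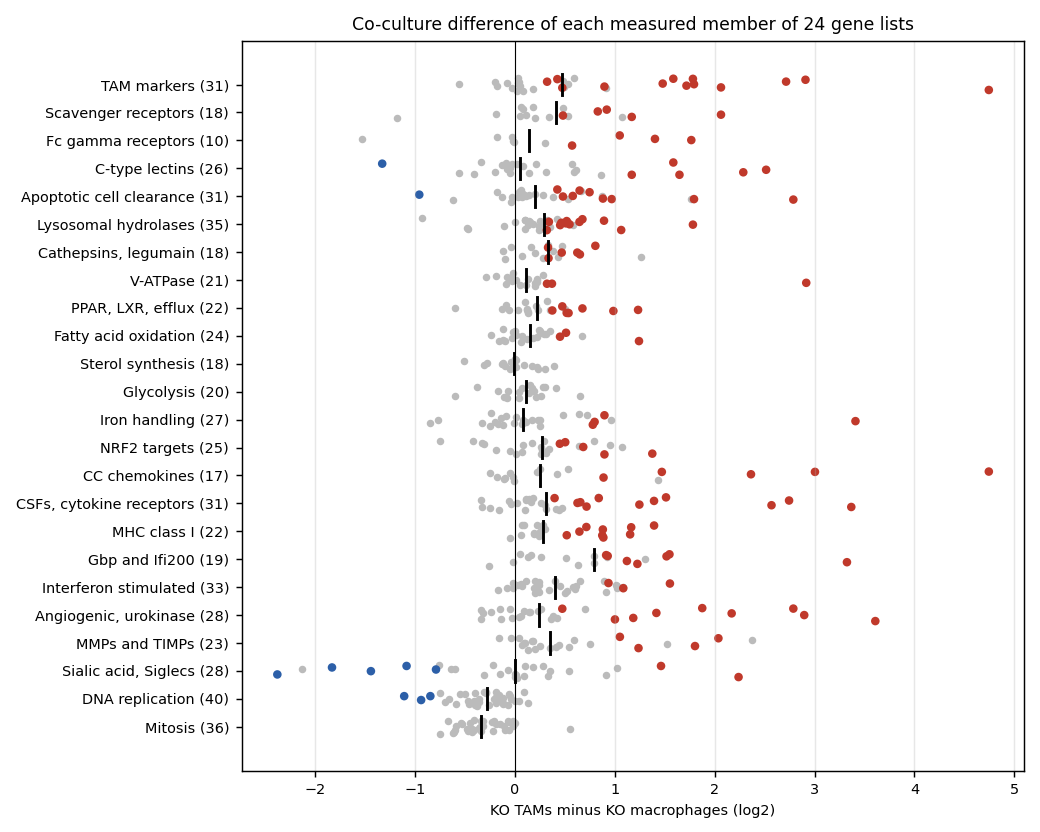
Difference between KO TAMs and KO macrophages (log2, horizontal axis) of each measured member of 24 gene lists, with the number measured in brackets. Red dots mark called rises, blue dots called falls and grey dots genes that were not called; black bars are list medians, 0.80 for guanylate-binding and Ifi200 proteins and 0.47 for TAM markers.

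Of 31 TAM markers measured, 13 rose and 0 fell (median 0.47), and the calls of 10 held. Gpnmb, a glycoprotein of lysosome-rich macrophages, read 11.16, 11.24 and 11.07 in KO macrophages and 13.13, 12.88 and 12.81 in KO TAMs, a 3.44-fold rise (1.78 ± 0.10) with an adjusted p of 5.9e-06. Folr2, a folate receptor of resident and tumour macrophages, read 9.65 to 9.78 and then 11.66, 11.45 and 11.20 (1.72 ± 0.11). The mannose receptor Mrc1 read 10.40 to 10.43 and then 12.68, 11.94 and 11.37 (1.59 ± 0.27). In the 3 genes each KO TAM array was above each KO macrophage array, with KO TAM 1 highest. The galectin Lgals3 rose by 1.48 ± 0.12.

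Of 18 scavenger receptors measured, which include Cd36, 5 rose and 0 fell (27.8%, median 0.41). Msr1 (scavenger receptor A), which binds modified lipoproteins, read 8.82, 8.96 and 9.001 in KO macrophages and 11.44, 10.91 and 10.62 in KO TAMs, a 4.18-fold rise (2.06 ± 0.18, adjusted p = 7.2e-05). Colec12, a scavenger receptor with a lectin domain, rose by 1.17 ± 0.19 and Cd68, a scavenger receptor of the endosome, by 0.83 ± 0.08. Scarb1, the receptor for high-density lipoprotein, stood at 9.07 to 9.19 and then 9.20, 8.64 and 8.95 (-0.18 ± 0.19, adjusted p = 0.66). Thus Msr1 read higher by more than its spread, whereas for Scarb1 the groups overlapped.

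Fc gamma receptors, which bind antibody-coated targets, rose in 4 of 10 cases and fell in 0 (median 0.15). Fcgr1, the high-affinity receptor, read 10.26, 10.24 and 10.23 in KO macrophages and 11.73, 11.48 and 11.73 in KO TAMs (1.40 ± 0.08, adjusted p = 9.17e-06). The inhibitory Fcgr2b rose by 1.77 ± 0.24, from 10.36 to 10.54 up to 12.80, 11.95 and 11.89, and Fcgr3 by 1.05 ± 0.16. The activating Fcgr4 (0.30 ± 0.09, adjusted p = 0.0844) and the shared signalling chain Fcer1g (-0.03 ± 0.08, adjusted p = 0.899) did not pass the test. Of 26 C-type lectins, 5 rose and 1 fell (23.1%, median 0.05). Besides Clec4n, Clec7a (dectin-1), the receptor for beta-glucan, read 6.65, 6.70 and 6.77 in KO macrophages and 9.55, 8.48 and 8.94 in KO TAMs (2.29 ± 0.22), and Clec4d, a receptor for mycobacterial lipid, rose by 1.65 ± 0.16.

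Among 31 genes of the uptake of apoptotic cells, 9 rose and 1 fell (32.3%, median 0.20). Axl, a receptor tyrosine kinase for phosphatidylserine bridged by Gas6, read 6.77, 6.43 and 6.57 in KO macrophages and 8.33, 8.35 and 8.47 in KO TAMs, a 3.47-fold rise (1.79 ± 0.17). Its 3 TAM arrays agreed within 0.14. The related kinase Mertk rose by 0.75 ± 0.13 and Havcr2 (TIM-3), a phosphatidylserine receptor and checkpoint molecule, by 0.88 ± 0.16, the latter not called on the KO arrays alone (adjusted p = 0.0591). The complement genes C1qb (13.03 to 13.10 over the 6 arrays) and C1qc (11.56 to 11.66) were high in both cultures and did not pass the test. C1qa, the remaining chain of C1q, rose by 0.42 (adjusted p = 0.01), and its call held. Of 26 complement genes measured, 5 rose and 1 fell (23.1%, median 0.17).

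Of 35 lysosomal enzymes and membrane proteins measured, 13 rose, 0 fell and 22 were not called (median 0.30; 31 of 35 differences were above 0), and 7 calls held. Gla, alpha-galactosidase A, read 10.21, 10.34 and 10.31 in KO macrophages and 11.22, 11.29 and 11.56 in KO TAMs (1.06 ± 0.11, 2.09-fold, adjusted p = 0.000272). Naglu, which degrades heparan sulfate, read 8.16 to 8.34 and then 9.52, 8.93 and 9.04 (0.89 ± 0.14). Tpp1, a lysosomal peptidase, rose by 0.53 ± 0.07 and Npc2, a carrier of cholesterol in the lysosome, by 0.52 ± 0.08. The ceramidase Asah1 (0.00 ± 0.08) and the membrane protein Lamp2 (0.14 ± 0.08) did not pass the test. Of 18 cathepsins and related proteases, 6 rose and 0 fell (33.3%, median 0.33). Ctsd, an aspartic protease, read 12.52, 12.46 and 12.48 and then 13.22, 13.10 and 13.10 (0.65 ± 0.07, adjusted p = 0.000516), and Ctsl, a cysteine protease, read 10.86, 10.86 and 10.94 and then 12.07, 11.62 and 11.39 (0.81 ± 0.15). Ctsh (0.62 ± 0.10) and Lgmn, the asparagine endopeptidase (0.47 ± 0.08), rose as well, and the abundant Ctsb (13.47 to 13.48 and 13.63 to 13.65) did not pass (0.16 ± 0.07, adjusted p = 0.193). Of 21 subunits of the vacuolar proton pump 3 rose, and Atp6v0d2 was the 1 whose call held. Rragd, a small GTPase that signals amino acids to mTORC1 at the lysosome, read 7.02, 7.03 and 7.04 in KO macrophages and 9.88, 8.90 and 9.17 in KO TAMs, a 4.89-fold rise (2.29 ± 0.22). The call of Ctsl was lost on the KO arrays alone (adjusted p = 0.0581).

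Many lysosomal genes carry near their start an E-box that the transcription factors TFEB and TFE3 can bind, and the RefSeq sequence before the start of 4 of the genes that rose is shown because it holds it. The windows are from assembly GRCm38.p6, run 5′ to 3′ on the strand of the gene and end before the annotated start, and capitals mark each CACGTG, which is its own reverse complement. They lie at chrX:134601134-134601255 (minus strand, Gla), chr11:101069961-101070086 (plus, Naglu), chr7:142387860-142388077 (minus, Ctsd) and chr13:64370691-64370770 (minus, Ctsl).
Gla: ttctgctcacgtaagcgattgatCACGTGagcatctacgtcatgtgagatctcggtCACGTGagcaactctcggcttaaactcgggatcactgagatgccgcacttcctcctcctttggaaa
Naglu: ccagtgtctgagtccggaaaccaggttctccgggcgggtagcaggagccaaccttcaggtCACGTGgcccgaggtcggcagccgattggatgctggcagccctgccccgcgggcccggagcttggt
Ctsd: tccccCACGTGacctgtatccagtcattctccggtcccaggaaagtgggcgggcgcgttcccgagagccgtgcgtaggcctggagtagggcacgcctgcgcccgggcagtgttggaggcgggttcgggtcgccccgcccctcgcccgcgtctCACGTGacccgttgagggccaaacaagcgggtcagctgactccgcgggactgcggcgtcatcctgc
Ctsl: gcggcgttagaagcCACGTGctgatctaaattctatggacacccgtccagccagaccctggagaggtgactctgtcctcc

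CACGTG occurred in 9.19% of the 16990 tested genes with a promoter window, from 250 bases before to 50 after the start. A gene with several starts had several windows and was counted where any of them matched. The motif occurred in 7 of 30 genes of the lysosomal list (23.3%) and in 5 of 13 of the cathepsins (38.5%). Of the 7 lysosomal genes with a match 3 rose, and of the 23 without a match 8 rose; for cathepsins these were 3 of 5 and 2 of 8. Over all genes with a window, 9.96% of those that rose and 9.94% of those that fell held the motif. The match describes these letters, and binding was not measured.

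Lipid genes moved in part. Of 10 fatty acid binding proteins 2 rose (Fabp4 and Fabp5, above) and 1 fell. Of 19 genes of fatty acid uptake and activation 3 rose and 2 fell (26.3%, median 0.15): the fatty acid transporter Slc27a1 rose, with 7.08, 7.09 and 7.03 in KO macrophages and 7.87, 7.74 and 7.68 in KO TAMs (0.70 ± 0.08, adjusted p = 0.000547), and so did the lysosomal acid lipase Lipa (0.45 ± 0.08). Lpl, the secreted lipoprotein lipase, read 11.21 to 11.29 and then 10.42, 11.34 and 10.96 (-0.36 ± 0.18, adjusted p = 0.297). Of 22 genes of PPAR and LXR targets and cholesterol efflux 7 rose and 0 fell (31.8%, median 0.22). Apoc2, an apolipoprotein that activates Lpl, read 7.39, 7.30 and 7.36 and then 9.05, 8.44 and 8.26 (1.23 ± 0.20), and Nceh1, which hydrolyses cholesteryl esters, rose by 0.54 ± 0.08. The nuclear receptor Pparg (-0.13 ± 0.15, adjusted p = 0.71) and the exporter Abca1 (0.35 ± 0.26, adjusted p = 0.514) did not pass the test.

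Of 24 genes of fatty acid oxidation 3 rose and 0 fell (12.5%, median 0.15). Cpt1a, which brings fatty acids into mitochondria, read 7.62, 7.54 and 7.55 in KO macrophages and 8.99, 9.01 and 8.44 in KO TAMs, a 2.37-fold rise (1.24 ± 0.16, adjusted p = 0.00113). Of 24 lipid droplet genes 3 rose. Plin3, a droplet coat protein, rose by 0.53 ± 0.09. Its relative Plin2 read 9.76, 9.73 and 9.82 and then 11.05, 11.20 and 10.74 (1.23 ± 0.24), and leaving out KO macrophage 2 ended that call (adjusted p = 0.0517). The 18 genes of sterol synthesis had 0 calls at the threshold and a median of -0.01, and their mean level was split over the TAM arrays, with 8.48 to 8.54 in KO macrophages and 9.39, 7.73 and 8.37 on KO TAMs 1, 2 and 3. KO TAM 1 was thus above, and KO TAM 2 below, the KO macrophages. The 20 glycolysis genes, with Gapdh at 12.36 to 12.41 and then 12.48 to 12.56, also had 0 calls (median 0.11).

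Genes of iron and haem handling rose in 4 of 27 cases and fell in 0 (14.8%, median 0.09), and all 4 calls held. With Slc40a1, the haem oxygenase Hmox1, which frees iron from haem, read 10.22, 10.20 and 10.08 in KO macrophages and 10.91, 11.14 and 11.13 in KO TAMs (0.90 ± 0.17). The haem transporter Slc48a1 (0.80 ± 0.09) and the ferritin receptor Ncoa4 (0.78 ± 0.12) rose, and the ferritin heavy chain Fth1 was near 13.3 to 13.4 in both cultures (0.07 ± 0.07, adjusted p = 0.689). Of 25 genes of a list for NRF2, the regulator of the antioxidant response, 5 rose and 0 fell (20%, median 0.27). The list holds targets of NRF2 and also its own gene Nfe2l2 and that of its inhibitor, Keap1. Nfe2l2 was among the rises (0.45, adjusted p = 0.0299), and its call did not hold. Mgst1, a glutathione transferase of membranes, read 7.23 to 7.51 and then 8.96, 8.74 and 8.48 (1.38 ± 0.17), Txn1 (thioredoxin) rose by 0.68 ± 0.09 and Gstm1, a cytosolic glutathione transferase, by 0.50 ± 0.08. Xdh, the xanthine dehydrogenase that makes uric acid, which was named after its values were seen, read 9.04, 9.07 and 9.08 and then 11.24, 10.72 and 10.82 (1.86 ± 0.12, adjusted p = 1.38e-05).

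Chemokines of the CC family rose in 5 of 17 cases and fell in 0 (29.4%, median 0.25), and all 5 calls held. With Ccl8 and Ccl12, Ccl6, a chemokine of myeloid cells, read 8.98, 8.93 and 9.06 in KO macrophages and 11.90, 11.34 and 10.82 in KO TAMs (2.36 ± 0.20, 5.15-fold), Ccl7, which draws monocytes through CCR2, read 8.40 to 8.84 and then 9.99, 9.88 and 10.55 (1.47 ± 0.21), and Ccl9 rose by 0.89 ± 0.17 (adjusted p = 0.0777 on the KO arrays alone). Ccl2, the main ligand of CCR2, read 9.14 to 9.30 and then 9.30, 9.44 and 10.16 and did not pass the test (0.43 ± 0.18, adjusted p = 0.209), nor did the abundant Ccl3 (12.51 to 12.59 and 12.02 to 12.91). Of 17 CXC chemokines only Pf4 rose. Ccr2, the receptor, was low on all 6 arrays (3.96 to 4.31).

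In a list of cytokine receptors and colony-stimulating factors, 11 of 31 genes rose, among them the growth factor Csf1, and 0 fell (median 0.31), and the calls of Il7r, Csf2rb2, Il13ra1 and Il6st held. Il6st (gp130), the signalling chain of the interleukin-6 receptor, read 7.94, 7.97 and 8.03 in KO macrophages and 10.38, 9.28 and 8.82 in KO TAMs (1.51 ± 0.28; adjusted p = 0.0758 on the KO arrays alone). Csf1r, the receptor on which macrophages depend, rose by 0.84 ± 0.19 with KO TAM 1 highest (12.18 against 11.39 and 11.28), a call lost without any of KO macrophages 1, 2 and 3 (adjusted p up to 0.0748) and on the KO arrays alone (0.106), and the rise was 0.56 without KO TAM 1. Of 32 cytokine and inflammasome genes 6 rose and 2 fell (25%, median 0.15). Il18bp, the soluble inhibitor of interleukin-18, read 7.97, 8.11 and 8.15 and then 9.49, 9.99 and 10.84 (2.03 ± 0.31). Saa3, an acute-phase protein of macrophages, read 10.87 to 11.05 and then 13.42, 12.50 and 12.91 (2.0027 ± 0.26, adjusted p = 0.00125). Pycard (ASC), the adaptor of inflammasomes, fell by 0.55 (± 0.11). Tnf (8.51, 10.64 and 11.09 on KO TAMs 1, 2 and 3 against 11.26 to 11.45), Il1b (-0.86 ± 0.34), Il6 (-0.06 ± 0.46), Il10 (-0.56 ± 0.33) and Tgfb1 (-0.21 ± 0.10) did not pass the test, and Arg1 (4.22 to 4.57) and Nos2 (5.20 to 5.87) were low on all 6 arrays.

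Genes of antigen presentation by MHC class I rose in 9 of 22 cases and fell in 0 (median 0.28), with 6 calls held. H2-K1, a classical class I heavy chain, read 10.06, 10.12 and 10.04 in KO macrophages and 10.94, 11.21 and 11.57 in KO TAMs (1.16 ± 0.14, 2.24-fold, adjusted p = 0.000622). The nonclassical H2-T23 read 7.89 to 7.96 and then 8.73, 9.13 and 9.40 (1.15 ± 0.14), and H2-Q4 rose by 1.39 ± 0.21 (0.82 with the mean of its probe sets). The peptide transporter Tap1 (0.89 ± 0.16), tapasin Tapbp (0.88 ± 0.11) and H2-M3 (0.87 ± 0.11) rose, while the light chain B2m was near 13.4 to 13.5 in both cultures (0.09 ± 0.08, adjusted p = 0.602). In H2-K1, H2-T23 and Tap1 the KO TAM arrays had the order 1, 2, 3 from low to high, which is the reverse of that in Slc40a1 and Il7r. Class I heavy chains are close copies of each other, and how far the probe sets tell them apart was not tested.

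Guanylate-binding proteins and Ifi200 proteins, which are induced by interferon and act against intracellular microbes, rose in 7 of 19 cases and fell in 0 (median 0.80), with 5 calls held. Gbp7 read 9.70, 9.71 and 9.65 in KO macrophages and 10.74, 10.40 and 10.70 in KO TAMs (0.93 ± 0.11, adjusted p = 0.000579). Gbp3 read 7.08 to 7.28 and then 8.14, 8.12 and 8.68 (1.12 ± 0.17), and Gbp5 read 5.11 to 5.80 and then 6.94, 6.46 and 7.42 (1.52 ± 0.25). Each KO TAM array was above each KO macrophage array in these genes. Ifi204 rose by 0.91 ± 0.17 (adjusted p = 0.0603 on the KO arrays alone). Guanylate-binding protein genes are a cluster of near copies, so that signal could be shared between them.

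A wider list of interferon-stimulated genes was less clear. Of 33 measured genes 3 rose and 0 fell (9.09%, median 0.41). Ifitm3, which blocks virus entry, read 10.72, 10.79 and 10.61 in KO macrophages and 12.05, 12.24 and 12.49 in KO TAMs (1.55 ± 0.13, adjusted p = 6.18e-05), and Oasl2, an antiviral protein of the oligoadenylate synthetase family, rose by 0.94 ± 0.18. Zbp1 was the remaining rise (1.085, adjusted p = 0.0281). Its call was lost without KO macrophage 1, 2 or 3 or KO TAM 2 or 3 (adjusted p up to 0.0914). Siglec1 (CD169), an adhesion receptor of macrophages that interferon induces, belongs to the sialic acid list below and not to this one. It read 8.57, 8.74 and 8.72 and then 10.37, 11.14 and 11.24 (2.24 ± 0.24). Other members of the interferon list were low on KO TAM 1 and high on KO TAMs 2 and 3. Usp18, which dampens interferon signalling and was named after its values were seen, read 9.88 to 9.98 in KO macrophages and 8.14, 10.52 and 11.05 in KO TAMs. The mean level of the 33 genes was 8.99 to 9.05 in KO macrophages and 8.76, 9.73 and 9.99 on KO TAMs 1, 2 and 3, so that KO TAM 1 alone was below the KO macrophages. The guanylate-binding and Ifi200 list stood at 7.37 to 7.41 and then 7.60, 8.28 and 8.81, with all 3 KO TAM arrays above.

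**Figure D3:**
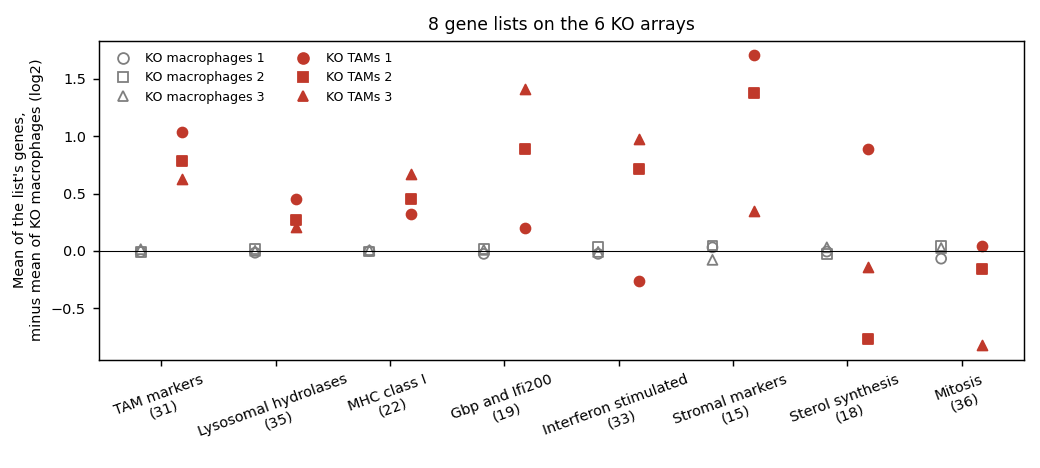
Mean log2 level of 8 gene lists on each KO array, as the difference from the mean of the 3 KO macrophage arrays (vertical axis), with open grey symbols for KO macrophages and filled red symbols for KO TAMs 1 to 3. The interferon list lies below 0 on KO TAM 1 and above it on KO TAMs 2 and 3, the sterol list is above 0 on KO TAM 1 only, and the stromal list is highest on KO TAM 1.

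Sequences before the start of 4 of the interferon-induced genes that rose are shown because they hold the core of an interferon-stimulated response element, the site of interferon regulatory factors. They are from RefSeq on GRCm38.p6, run 5′ to 3′ on the strand of the gene and end before the annotated start, and capitals mark GAAA, any 2 bases, GAAA, or on the other strand TTTC, any 2 bases, TTTC. In Gbp3 2 matches overlap. The windows lie at chr3:142559939-142560043 (plus strand, Gbp3), chr3:142496709-142496838 (plus, Gbp5), chr3:142530223-142530335 (plus, Gbp7) and chr1:174031820-174031949 (minus, Ifi205).
Gbp3: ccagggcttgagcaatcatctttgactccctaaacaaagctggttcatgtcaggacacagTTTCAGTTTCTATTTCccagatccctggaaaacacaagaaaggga
Gbp5: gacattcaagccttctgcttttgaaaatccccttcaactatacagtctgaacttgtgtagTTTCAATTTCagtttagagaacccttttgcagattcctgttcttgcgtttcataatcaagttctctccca
Gbp7: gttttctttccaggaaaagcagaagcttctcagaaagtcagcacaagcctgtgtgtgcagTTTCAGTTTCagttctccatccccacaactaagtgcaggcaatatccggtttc
Ifi205: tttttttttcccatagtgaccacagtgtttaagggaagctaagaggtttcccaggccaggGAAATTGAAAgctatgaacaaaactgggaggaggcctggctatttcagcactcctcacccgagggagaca

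This motif (GAAA, any 2 bases, GAAA), searched on both strands, occurred in 3.87% of the 16990 genes with a promoter window, counted in the same way. It occurred in 9 of 11 genes of the guanylate-binding and Ifi200 list (81.8%), of which 4 rose, while 0 of the 2 genes without a match rose. In the interferon list it occurred in 14 of 24 genes (58.3%), and 1 of these 14 rose. It occurred in 4 of 16 genes of the MHC class I list (25%), where 1 of the 4 genes with a match and 5 of the 12 without a match rose. In the interferon list 1 of the 10 genes without a match rose. Over all genes the share was 6.64% among genes that rose and 5.36% among genes that fell.

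Angiogenic factors and genes of the urokinase system rose in 9 of 28 cases and fell in 0 (32.1%, median 0.25). Vegfa, the main growth factor of vessels, read 7.64, 7.37 and 7.49 in KO macrophages and 9.50, 9.85 and 9.66 in KO TAMs, a 4.5-fold rise (2.17 ± 0.39, adjusted p = 0.00749) in which the TAM arrays lay within 0.35 of each other. The urokinase Plau rose by 1.19 ± 0.14, from 7.24 to 7.48 up to 8.69, 8.41 and 8.55, its receptor Plaur by 1.42 ± 0.26, and the VEGF and semaphorin receptor Nrp1 by 1.0015 ± 0.15. Of 23 matrix metalloproteases and their inhibitors 4 rose and 0 fell (17.4%, median 0.35). Mmp27 read 8.28, 8.54 and 8.57 and then 11.08, 10.42 and 10.00 (2.04 ± 0.22), Mmp14, a membrane-bound collagenase, rose by 1.24 ± 0.19 and the inhibitor Timp2 by 1.05 ± 0.15. The stromal marker mean was higher on KO TAMs 1 and 2 than on KO TAM 3 (7.365, 7.040 and 6.005), and its part in these results was not tested. Mmp27, Timp2 and Nrp1 had the same order over the 3 KO TAM arrays as this mean. So had Ednrb, Pdgfc, Thbs1 and Timp1, which also rose in these lists. Vegfa, Plau, Plaur, Mmp14 and Serpinb2, which rose too, did not. The order was not particular to these lists or to stromal genes. Slc40a1, Il7r, Gpnmb and Ccl6 had it as well, and its share over all called genes was not counted.

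Other surface molecules, named after their values were seen, also rose. The protease Adam8 read 7.44, 7.17 and 7.43 in KO macrophages and 10.35, 9.64 and 8.79 in KO TAMs (2.25 ± 0.28, adjusted p = 0.00076). Anpep (CD13), an aminopeptidase of myeloid cells, read 8.90 to 9.07 and then 12.22, 10.64 and 10.50 (2.13 ± 0.36), and Vcam1, the ligand of the integrin VLA-4, read 6.08 to 6.34 and then 8.04, 7.74 and 7.35 (1.54 ± 0.24). The nucleotide receptors P2ry13 (1.91 ± 0.35) and P2ry14 (1.85 ± 0.35, adjusted p = 0.0638 on the KO arrays alone) rose, whereas Sucnr1, the receptor for succinate, read 5.18, 5.399 and 5.08 and then 3.61, 3.85 and 3.95 (-1.41 ± 0.17), where the KO TAM levels are low on this array. Ms4a4a, a membrane protein of macrophages and a member of the S100 and Ms4a list (5 of 25 rose, 0 fell), read 10.40 to 10.45 and then 12.73, 11.90 and 11.88 (1.75 ± 0.19). Of 21 chemokine receptors 4 rose and 0 fell (19.0%), and none of the 4 calls held. Cxcr4, the receptor for the marrow chemokine CXCL12, read 7.43, 7.31 and 7.25 and then 11.38, 9.09 and 8.79, a difference of 2.42 ± 0.51 that was 1.61 without KO TAM 1 and lost its call without KO macrophage 1, 2 or 3 (adjusted p up to 0.0609) and on the KO arrays alone (0.0928). Of 24 Toll-like receptors and adaptors 5 rose and 1 fell (25%, median -0.11), and Tlr3, the sensor of double-stranded RNA, rose by 0.77, from 8.92 to 9.12 up to 9.62, 9.62 and 10.08.

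Sialic acid genes moved both ways, with 2 rises (Siglec1 among them) and 5 falls among 28 measured (25%, median 0.00). Besides Cmah and St8sia6, the sialyltransferase St3gal6 fell, from 7.54, 7.64 and 7.56 in KO macrophages to 5.34, 6.29 and 6.78 in KO TAMs (-1.44 ± 0.26; adjusted p = 0.0677 on the KO arrays alone). The inhibitory receptor Siglece read 10.76 to 10.81 and then 5.61, 10.08 and 10.28 and did not pass the test (adjusted p = 0.251). Of 24 genes of costimulation and checkpoints 2 rose and 1 fell (12.5%). Icosl, the ligand of the T cell costimulator ICOS, read 8.71, 8.66 and 8.64 and then 6.79, 7.44 and 7.64 (-1.38 ± 0.20, adjusted p = 0.00235). Cd274 (PD-L1) read 10.62 to 10.73 and then 11.07, 10.90 and 11.54, higher on each KO TAM array but not past the threshold (0.49 ± 0.15, adjusted p = 0.081).

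Of 41 transcription factors of macrophage identity and activation 5 rose and 4 fell (22%, median 0.15). Bhlhe41, a repressor, rose from 6.58, 6.70 and 6.82 to 8.21, 7.73 and 7.81 (1.22 ± 0.13, adjusted p = 0.000352), and Irf8, a factor of monocytes and macrophages, rose by 0.54 ± 0.09. Spi1 (PU.1), the master factor of the myeloid lineage, fell by 0.48 (± 0.08), with 10.85 to 10.89 and then 10.33, 10.43 and 10.44, and Cebpd fell by 0.80 (± 0.14; adjusted p = 0.0547 on the KO arrays alone). Myb, a factor of progenitor cells, was named after its values were seen and read 6.06, 6.31 and 6.34 and then 4.22, 4.84 and 5.01 (-1.54 ± 0.19, and -0.79 with the mean of its probe sets).

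Of 60 ribosomal protein genes measured, 17 fell, 0 rose and 43 were not called (28.3%), with a median of -0.32, and 57 of the 60 differences were below 0. Rps4x, of the small subunit, read 11.33, 11.32 and 11.33 in KO macrophages and 10.32, 10.89 and 10.62 in KO TAMs (-0.72 ± 0.13, adjusted p = 0.00718), and Rpl32, of the large subunit, read 11.52 to 11.59 and then 10.68, 11.09 and 10.93 (-0.65 ± 0.13). The list mean was 8.56 to 8.58 in KO macrophages and 8.05, 8.39 and 8.30 on KO TAMs 1, 2 and 3, lowest on KO TAM 1. The calls of Rps4x, Rpl32 and Rps25 (-0.63 ± 0.10) held, and those of Rps4x and Rps25 were lost on the KO arrays alone (adjusted p = 0.054 and 0.0541). Ribosomal protein genes have many processed copies in the genome, and whether probes also read these was not tested.

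Of 40 DNA replication genes 3 fell and 0 rose (7.5%, median -0.28), and 4 of the 40 differences were above 0. Hells, a chromatin remodeller of dividing cells, read 7.34, 7.32 and 7.28 in KO macrophages and 5.79, 6.61 and 6.20 in KO TAMs (-1.11 ± 0.17, adjusted p = 0.00252). None of the 36 mitosis genes passed the test by limma (median -0.34), and 2 of the 36 differences were above 0. The mean level of these genes was 6.997 to 7.107 in KO macrophages and 7.11, 6.91 and 6.24 on KO TAMs 1, 2 and 3. KO TAM 3 was thus the lowest in mitosis genes. The proliferation marker Mki67 read 9.16 to 9.18 and then 9.82, 9.21 and 8.47 (0.00 ± 0.33).

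MicroRNA loci were read by the array through their precursors or primary transcripts, not as mature microRNAs, and these loci were described after their values were seen. Mature microRNAs bind target transcripts mainly through their seed, bases 2 to 8. Of 478 loci tested 3 were higher and 14 lower in KO TAMs (3.56% called, against 6.53% of all genes tested). Mature sequences of 6 of the loci that fell, which were picked by hand and not by rank, are printed. They are from RefSeq (GRCm38.p6), 5′ to 3′, with the seed in capitals. The 6 sequences carry 5 seeds, and let-7c and let-7a share theirs. They lie at chr11:43374435-43374456 (minus strand, miR-146a-5p), chr12:108658680-108658702 (plus, miR-342-3p), chr16:77599672-77599693 (plus, let-7c-5p of Mirlet7c-1), chr13:48538239-48538260 (minus, let-7a-5p), chr16:77598940-77598961 (plus, miR-99a-5p) and chr8:84208727-84208747 (plus, miR-27a-3p).
mmu-miR-146a-5p: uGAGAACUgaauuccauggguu
mmu-miR-342-3p: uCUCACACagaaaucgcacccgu
mmu-let-7c-5p: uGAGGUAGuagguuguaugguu
mmu-let-7a-5p: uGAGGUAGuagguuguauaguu
mmu-miR-99a-5p: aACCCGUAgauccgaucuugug
mmu-miR-27a-3p: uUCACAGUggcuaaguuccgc

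Mir146, the locus of miR-146a, which dampens signalling from Toll-like receptors to NF-kappaB, read 6.02, 5.74 and 6.16 in KO macrophages and 3.23, 3.25 and 3.40 in KO TAMs. The difference was -2.68 ± 0.18 (adjusted p = 1.38e-05). The level in KO TAMs was about that of olfactory receptor genes, whose mean over 1105 genes was 3.33 to 3.38 on the 6 KO arrays, so that it may be the floor of the array and the size of the fall cannot be read as exact. Mir342 read 8.0033, 8.06 and 8.23 and then 6.93, 6.44 and 6.72 (-1.40 ± 0.11, adjusted p = 5.79e-05). The 3 TAM arrays of Mir146 agreed within 0.17, and in both loci they were below all KO macrophages.

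The let-7 seed GAGGUAG was shared by 12 loci tested, of which 3 were lower, 0 higher and 8 had a difference below 0 (median -0.16). Mirlet7c-1 read 7.56, 7.63 and 7.74 in KO macrophages and 5.92, 5.25 and 6.60 in KO TAMs (-1.72 ± 0.26, adjusted p = 0.00258), Mirlet7c-2 fell by 1.17 (± 0.18, and -0.75 with a pseudocount of 10) to levels of 3.27 to 3.81, which are also near that floor, and Mirlet7a-1 by 0.60 (± 0.12), where leaving out KO macrophage 1 or 3 ended the call (adjusted p up to 0.0511). Mir99a, which lies 656 bases from Mirlet7c-1 on chromosome 16, read 7.65, 7.74 and 7.66 and then 6.24, 6.38 and 6.70 (-1.24 ± 0.22), and the noncoding gene Mir99ahg fell by 1.34 (± 0.23). Mir27a read 7.48 to 7.50 and then 7.03, 6.95 and 6.58 (-0.63 ± 0.11; adjusted p = 0.0541 on the KO arrays alone).

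**Figure D4:**
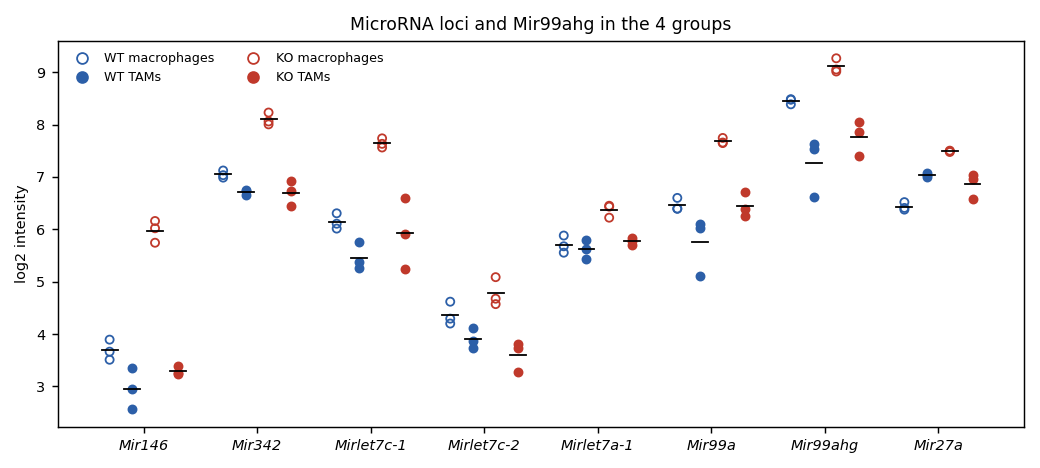
Log2 intensity (vertical axis) of 7 microRNA loci and the noncoding gene Mir99ahg on each array of the 4 groups, blue for WT and red for KO, open for macrophages and filled for TAMs, with black bars at group means. Mir146 in KO macrophages (5.74 to 6.16) stands above the other 3 groups, which include KO TAMs at 3.23 to 3.40.

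The response of KO cells was set against that of WT cells by their interaction, in which the co-culture difference of WT cells is subtracted from that of KO cells. The WT comparison called 2561 genes (11.5%). Of the KO calls, 891 were called in WT TAMs in the same direction (61.5% of the KO and 34.8% of the WT calls), 4 in the opposite direction, and 554 were not called in WT. The interaction itself passed the test in 43 genes (0.194%), more positive in KO in 23 (0.104%) and more negative in 20 (0.0902%), so that a call in 1 genotype alone does not show a difference. Xist, which XX cells express and XY cells do not, read 3.91 to 4.35 on the KO and 11.08 to 11.32 on the WT arrays. No gene of the Y chromosome is given here. The labels give no sex, so that in this contrast genotype and sex cannot be told apart.

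Cmklr1, the receptor for chemerin, and Fcgr1 rose more in KO than in WT cells. Cmklr1 read 5.85, 5.92 and 5.70 in KO macrophages and 7.50, 7.37 and 7.55 in KO TAMs, against means of 5.86 and 5.9975 in WT macrophages and WT TAMs, and its interaction was 1.51 (adjusted p = 0.00746). Fcgr1 rose by 1.40 in KO and stood 0.25 higher in WT TAMs (interaction 1.16, adjusted p = 0.00366). Gpnmb (interaction 1.03, 0.0111), Folr2 (1.13, 0.0171) and Ifitm3 (1.05, 0.0473) were called as well, and these calls were each lost without KO macrophage 3 and without some other arrays, all of macrophages alone for Gpnmb and Folr2, with adjusted p up to 0.0552, 0.0842 and 0.17. The calls of Cmklr1 and Fcgr1 held on leaving out each of the 12 arrays.

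In other genes co-culture lowered the level in WT cells and moved it less in KO cells. The lectin Clec4a4 had means of 8.19 in KO macrophages, 7.63 in KO TAMs, 7.63 in WT macrophages and 5.08 in WT TAMs (interaction 1.99, adjusted p = 0.00859). Uchl1, a ubiquitin hydrolase (2.08, and 0.99 with the mean of its probe sets), Shisa3 (2.28) and H2-M2, a nonclassical class I gene (2.72), had the same pattern, with KO differences of 0.22, -0.33 and 0.28 and WT differences of -1.86, -2.60 and -2.43. In a further set the interaction was negative. For Mir146 it was -1.95 (adjusted p = 0.00969), but WT macrophages (mean 3.69), WT TAMs (2.95) and KO TAMs (3.29) all lay near the level of olfactory receptor genes, so that the sizes of its falls in KO and WT cells cannot be compared. St8sia6 fell by 1.83 in KO and by 0.47 in WT cells (-1.36, 0.00969), and Mir27a fell by 0.63 in KO and rose by 0.60 in WT cells (-1.23, 0.00834). Mr1, which presents vitamin metabolites to T cells, rose by 0.40 in KO and by 1.58 in WT cells (-1.18, 0.00969), where the KO call was lost without KO macrophage 1, 2 or 3 or KO TAM 1 (adjusted p up to 0.141) and on the KO arrays alone (0.157), by quantile normalization again (0.057), with arrays centred on medians (0.0667) and with the replicate block (0.0685).

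The gap between KO and WT cells was also read in each culture for the 43 genes. In 25 of the 43 genes KO and WT macrophages differed at the threshold while KO and WT TAMs did not. In 11 only the TAMs differed, and in 7 both did. The genes were chosen by the interaction, which is also the gap in TAMs minus that in macrophages. This choice favours a large gap in either culture, and the shares over all genes tested were not counted. In which culture the difference between genotypes lay was thus not tested. Mir146 had means of 5.97 in KO and 3.69 in WT macrophages, while both TAM means were near the floor. Over the 43 genes the gap was smaller in TAMs in 32.

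**Figure D5:**
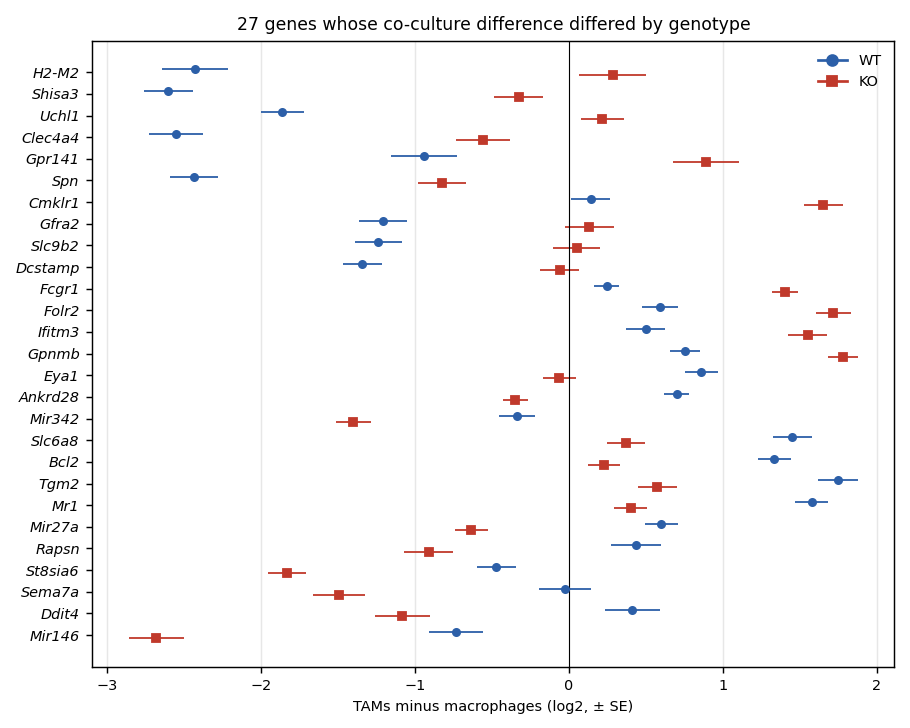
Co-culture difference (TAMs minus macrophages, log2, horizontal axis) with its standard error in WT (blue circles) and KO cells (red squares) for 27 genes whose interaction passed the test, from the most positive interaction at the top. H2-M2, Shisa3 and Uchl1 are below 0 in WT and near 0 in KO cells, Cmklr1 and Fcgr1 are near 0 in WT and above 1 in KO cells, and Mir146 is at -2.68 in KO cells.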

How the data were processed

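Expression was measured on whole-transcript Affymetrix arrays, 12 in all, 3 for each of 4 groups. The deposited table holds linear intensities of 41345 probe sets, normalized by the authors with RMA, per the submitters' processing notes, which also name limma. Their log2 was taken here with no pseudocount. The 23521 probe sets with 1 gene symbol in the platform annotation were used (1814 had several, 16010 none), and the probe set with the highest mean stood for each of 22180 genes, 1082 of which had several. Of the 23521, 23328 matched RefSeq by Entrez identifier, and 0 symbols changed.

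limma 3.58.1 in R 4.3.3 fitted 4 group means to all 12 arrays (8 residual degrees of freedom), with the interaction as a contrast, and p-values were adjusted over all genes. The fit was tested on simulated data. Each KO array was left out in turn, and other weights, scalings, filters and probe set rules were tried.

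Members and gene lists were chosen with earlier results of these data known. Named genes are the 20 largest called rises and falls without overlap (predicted genes, small RNA loci, olfactory and vomeronasal receptors and immune receptor segments left out), the 10 largest called interactions each way, up to 8 called members of each list and its 3 highest members that were not called, and a fixed set of macrophage genes. Jchain, Tnfrsf17, Pou2af1, Sdc1, Pdgfra, Thy1, Lum, Lgals3, Xdh, Usp18, Myb, Xist, the ribosomal protein genes and the microRNA loci were named after their values were seen. The arrays were fitted as unpaired. Between arrays of the same replicate number the correlations of deviations over all genes were from -0.031 to 0.018, which cannot settle whether the numbers pair the arrays.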

Additional observations from a re-analysis of the deposited data

Results flagged for a closer look

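The response to co-culture differed between genotypes, by the limma interaction test, in the 27 genes given here by the KO minus the WT difference on the log2 scale. In this contrast genotype and sex cannot be told apart. Genes with a more positive difference in KO cells were H2-M2 (2.72), Shisa3 (2.28), Uchl1 (2.08), Clec4a4 (1.99), Gpr141 (1.83), Spn (1.61), Cmklr1 (1.51), Gfra2 (1.34), Slc9b2 (1.29), Dcstamp (1.28), Fcgr1 (1.16), Folr2 (1.13), Ifitm3 (1.05) and Gpnmb (1.03). Genes with a more negative difference were Mir146 (-1.95, with 3 of the 4 groups near the floor of the array), Ddit4 (-1.49), Sema7a (-1.47), St8sia6 (-1.36), Rapsn (-1.35), Mir27a (-1.23), Mr1 (-1.18), Tgm2 (-1.17), Bcl2 (-1.11), Slc6a8 (-1.08), Mir342 (-1.06), Ankrd28 (-1.05) and Eya1 (-0.92). The calls of 11 of the 27 held on leaving out each of the 12 arrays, and the other 16 reached adjusted p values from 0.0552 to 0.17 without some array, most often one of macrophages alone. With the mean of the probe sets of a gene, Bcl2 stood at -0.43 and was not called (adjusted p = 0.297).

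Outside the named genes, 449 of the 16010 probe sets without a gene symbol (2.8%) were called between KO TAMs and KO macrophages by limma, 158 higher and 291 lower.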

How the results depend on the processing

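The KO comparison called 1449 genes, 643 higher and 806 lower, and the interaction 43. On the KO arrays alone it called 505 (234 higher, 271 lower), with array weights 2705 (1213 and 1492) and with a minimum of 2-fold 290 (174 and 116). Leaving out 1 of the 12 arrays gave 611 to 1939 calls, 283 to 882 higher and 310 to 1057 lower, the fewest without a KO macrophage array (647, 614 and 611) and the most without WT TAM 2. The other settings moved these counts by less than 1.5 times. The interaction called 761 genes with array weights, 99 with a trended and robust fit, 96 with a minimum mean level of 5, 89 with a pseudocount of 10, and 14 (without KO macrophage 3) to 444 (without KO TAM 1) on leaving out 1 array. Without KO TAM 1 and WT TAM 2 together, a setting chosen after seeing the data, it called 1496. With the replicate number as a block it called 26 and the KO comparison 1326. The cause of these shifts was not tested. No called named difference changed sign under any setting run; 51 of the 202 named differences that were not called did. The number of arrays, 3 in a group, limits the precision.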

Other observations

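The genes that changed at least 2-fold in WT TAMs had different sizes of change on the 3 KO TAM arrays. Over the 253 genes higher in WT TAMs, the median difference from the KO macrophage mean was 1.376 on KO TAM 1, 0.758 on KO TAM 2 and 0.499 on KO TAM 3, against 1.285 to 1.427 for the WT TAM arrays from the WT macrophage mean. Over the 258 genes lower in WT TAMs it was -1.439, -0.619 and -0.533 on KO TAMs 1, 2 and 3, against -1.464 to -1.346 on the WT TAM arrays. These genes were chosen on the WT arrays, which raises the WT medians, so the KO values are not set against them; among the KO TAM arrays, KO TAM 1 had the largest medians in size. Whether this array differs in its culture or its handling was not tested.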
